A study of Mus musculus with 2 samples.

Results

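The 10 genes described here carry fatty acids from the circulation into the heart muscle cell and through its lipid stores, and were chosen by function. Lpl serves lipoprotein lipolysis, Cd36, Slc27a1 and Fabp3 uptake and binding, Acsl1 activation, Plin2, Plin3, Plin4 and Plin5 the coating of lipid droplets and Pnpla2 their breakdown. They are 10 of the 25004 genes in the count tables. Messenger RNA was sequenced from hearts of cMyBP-C delta C0-C1f transgenic mice, whose transgene encodes cardiac myosin binding protein-C, a thick-filament protein, lacking the amino-terminal C0-C1f region, and of non-transgenic control mice. Both groups were of the FvB/N strain and 12 weeks old, and each was measured in 1 library made from 3 hearts combined. The sources used here name neither the promoter that drives the transgene nor the sex of the mice.

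The heart draws most of its energy from fatty acids. Lipoprotein lipase, made by heart muscle cells and moved to the capillary wall, releases fatty acids from circulating triglyceride, and CD36 and the transport protein FATP1 (Slc27a1) help them across the cell membrane. Inside the cell the binding protein H-FABP (Fabp3) carries them, acyl-CoA synthetase (Acsl1) activates them, and what is not oxidised is stored as triglyceride in droplets coated by perilipins, from which adipose triglyceride lipase (Pnpla2) releases it again.

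With 1 library per group no difference has a replicate check and there is no p-value. Intervals are 95% unless stated and hold counting error alone, and reads without molecular identifiers are not independent molecules. Totals were 190824 counts for the transgenic and 170543 for the non-transgenic library, which makes 1 count worth 4.94 CPM in the transgenic and 6.22 CPM in the non-transgenic library (CPM is the count scaled to a common effective library total). Summed counts of 11 heart muscle cell markers were 7725 in the transgenic and 4592 in the non-transgenic library. This fits the labelled tissue, but the sum rested on part of the list. Myl3 and Tnnt2 had no count, and Myh6, Mb and Pln had at most 2 counts in a library. Of all genes, 24% share exon bases with an opposite-strand gene, and they took 68.5% of the transgenic and 72.7% of the non-transgenic counts. The sources used here do not state the strand setting of the counting, on which it depends whether a count follows its own gene.

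Lpl dominated the set and was moderately higher in the transgenic library. Plin3 had the largest transgenic over non-transgenic ratio, on far fewer counts. The intervals of Fabp3, Plin2 and Plin4 included 1, with an exception for Fabp3 after centring on strand class. Cd36, Acsl1, Plin5 and Pnpla2 were not counted at all. A gene was given a ratio, transgenic over non-transgenic, where a library had more than 3 counts, and was called higher or lower at 1.5-fold with an interval that excluded 1. Of the 10 genes, 5 had a ratio. Of these, 1 was called higher, none lower and 4 neither, against 3.42% called higher and 5.9% called lower among 4236 genes with a ratio. The median log2 ratio of the 5 was 0.40, and that of all genes with a ratio 0.05. Genes with more counts are called more easily, and in the 1349 genes whose counts summed to 30 or more over both libraries, 6.23% were called higher and 12.1% lower. With 5 genes and 1 call, these shares do not set the genes apart from the rest of the table.

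**Figure D1:**
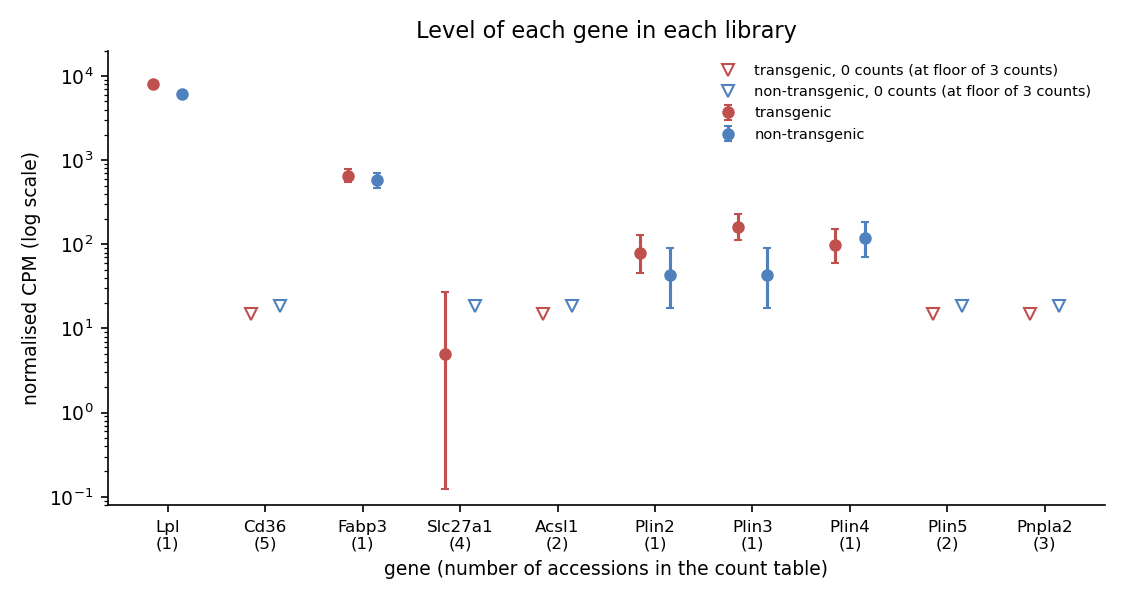
Normalised CPM (log scale) of each of the 10 genes in the transgenic (red, left) and non-transgenic (blue, right) library, with exact Poisson 95% intervals. Open triangles mark 0 counts, drawn at the floor of 3 counts, and the number under each name is the number of accessions of the gene; the 5 genes with 1 accession lie well above the floor in the transgenic library and the 5 with several lie at it or below.

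Lpl, which encodes lipoprotein lipase, was among the most counted genes of both libraries and was moderately higher in the transgenic library. It lies on chromosome 8 (68880491 to 68907448, plus strand, GRCm38), and no exon of an opposite-strand gene lies within 5 kb. It had 1624 counts in the transgenic and 976 in the non-transgenic library, which made it the 9th and 19th most counted gene, with 0.851% and 0.572% of all counts. Among genes with no opposite-strand exon within 5 kb it ranked 1 in the transgenic and 3 in the non-transgenic library. Lpl alone held 88.9% of the counts of the 10 genes in the transgenic and 88.6% in the non-transgenic library, so that any sum over the set describes Lpl.

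The normalised level of Lpl was 8027 CPM (exact Poisson interval 7641 to 8427) in the transgenic and 6067 CPM (5693 to 6460) in the non-transgenic library, and these intervals did not overlap. The ratio was 1.32 (interval 1.22 to 1.43), above 1 beyond counting error and below the 1.5-fold needed for a call. An interval above 1 at any fold was found for 3.94% of the 4236 genes. The ratio of Lpl was 1.49 (1.37 to 1.61) when libraries were scaled by total counts alone. Ratios also went with the strand class. The 237 genes with at least 30 counts and no opposite-strand exon within 5 kb had a median log2 ratio of 0.18, against -0.26 for 796 genes that overlap such an exon. In the class of Lpl, 35.4% of the genes had a higher log2 ratio than its 0.40, and relative to the class median Lpl was 1.17-fold higher (1.08 to 1.27).

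Before centring on strand class, the most counted heart muscle cell markers had ratios close to that of Lpl. The summed level of the 11 markers was 38183 CPM in the transgenic and 28547 CPM in the non-transgenic library, a ratio of 1.34 (1.29 to 1.39), and the ratio of Lpl divided by theirs was 0.989 (0.906 to 1.08). Of the 6 of 11 such markers with a ratio, 1 was called higher and none lower. Among all 4236 genes with a ratio, 3.42% were called higher and 5.9% lower. Myl2, the ventricular regulatory light chain and the most counted of them, had 3916 counts in the transgenic and 2405 in the non-transgenic library, a ratio of 1.29 (1.23 to 1.36). Most of the remaining sum lay on Actc1 with a ratio of 1.34 (1.23 to 1.45), Tnni3 with 1.40 (1.28 to 1.53) and Tnnc1, the marker called higher, with 1.59 (1.39 to 1.81). Ryr2 at 1.14 (0.906 to 1.44) and Ttn at 0.972 (0.366 to 2.65) had intervals that included 1, and Myh6, Mb and Pln had at most 2 counts in a library. Relative to the strand class median, log2 ratios were 0.63 for Myl2, 0.61 for Tnnc1, 0.43 for Tnni3 and 0.37 for Actc1. Those of Lpl, Ttn and Ryr2 were 0.23, 0.22 and 0.01. The closeness of the most counted markers to Lpl thus held only without this centring. Relative to the summed endothelial markers the ratio of Lpl was 1.26 (1.04 to 1.53), and relative to the summed adipocyte markers 1.35 (1.07 to 1.70), but Fabp4 holds most of both sums. It was 2.19 (1.40 to 3.46) relative to the fibroblast markers, 0.903 (0.485 to 1.63) relative to the macrophage markers and 0.845 (0.648 to 1.10) relative to the smooth muscle and pericyte markers. In whole-heart RNA a change in the number of cells of a type and a change in RNA per cell cannot be told apart, and the part of cell makeup in the ratio of Lpl was not tested.

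Fabp3, the fatty acid binding protein of heart and muscle, came next after Lpl in counts, and the interval of its ratio included 1 before centring on strand class but not after it. It lies on chromosome 4 (130308595 to 130315463, plus strand) and had 133 counts in the transgenic and 93 in the non-transgenic library. The level was 657 CPM (550 to 779) in the transgenic and 578 CPM (467 to 708) in the non-transgenic library, and these intervals overlapped. The ratio of 1.14 (0.866 to 1.5) leaves room for a small change in either direction. Relative to the median of the genes that overlap an opposite-strand exon, the class of Fabp3, it was 1.36-fold higher (1.03 to 1.79), below the 1.5-fold of a call. The exons of Fabp3 share 81 bp with those of Zcchc17 on the minus strand, which had no count in either library, and 80 bp with those of Gm10570, which is not a named row of the tables. A pseudogene, Fabp3-ps1, is annotated on another chromosome, and whether reads of Fabp3 were shared with it was not tested.

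Plin3, also called TIP47, a perilipin that most tissues express and that moves from the cytosol to new droplets, was counted clearly higher in the transgenic library. Plin3 lies on chromosome 17 (56277476 to 56292873, minus strand) with no opposite-strand exon within 5 kb, and had 33 counts in the transgenic and 7 in the non-transgenic library. The level was 163 CPM (112 to 229) in the transgenic and 43.5 CPM (17.5 to 89.7) in the non-transgenic library, and the intervals did not overlap. The ratio was 3.75 (1.63 to 10), and the call held under each of the scalings tried and after centring on the strand class, where the log2 difference from the class median was 1.73. Among the 237 genes of its strand class with at least 30 counts, 13.5% were called higher and 4.64% lower, so that a call like this was not rare there. Its count of 7 in the non-transgenic library leaves the size of the difference poorly determined.

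Plin2, or adipophilin, the perilipin that follows the amount of stored lipid in many cells, had 16 counts in the transgenic and 7 in the non-transgenic library. It lies on chromosome 4 (86648386 to 86670060, minus strand), again with no opposite-strand exon within 5 kb. The level was 79.1 CPM (45.2 to 128) in the transgenic and 43.5 CPM (17.5 to 89.7) in the non-transgenic library, with overlapping intervals. The ratio of 1.82 (0.707 to 5.22) passed 1.5-fold in size but not beyond counting error, as 26.6% of the 4236 genes reached that size upward with or without an interval that excluded 1. A difference as large as that of Plin3 lies within this interval, and so does a ratio below 1.

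Plin4, or S3-12, a perilipin abundant in fat cells and also found in muscle, had the only point ratio below 1 in the set. Its interval included 1, so no direction was set beyond counting error. On chromosome 17 (56100591 to 56109803, minus strand), it had 20 counts in the transgenic and 19 in the non-transgenic library. The level was 98.9 CPM (60.4 to 153) in the transgenic and 118 CPM (71.1 to 184) in the non-transgenic library, with overlapping intervals. The ratio was 0.837 (0.424 to 1.66), with a log2 ratio of -0.26. Its exons share 17 bp with those of Hdgfl2 on the plus strand, which had no count in either library, and the log2 difference of Plin4 from the median of the overlapping genes was 0.00.

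The perilipins therefore did not share a single ratio in the point values. Of 10 pairs among the 5 genes with a ratio, the ratios differed beyond a 95% counting interval in 3, and each of these involved Plin3. The ratio of Plin3 was 4.39 times that of Plin4 (1.45 to 14.7), 2.83 times that of Lpl (1.23 to 7.62) and 3.28 times that of Fabp3 (1.35 to 9.18). With intervals widened to 99.5% for the 10 pairs, none differed beyond its interval, the bounds for Plin3 over Plin4 being 0.968 and 24.7. Plin3 over Plin2 was 2.04 (0.513 to 8.16). Summed over the 4 perilipins the counts were 69 in the transgenic and 33 in the non-transgenic library, a ratio of 1.66 (1.08 to 2.60). Without Plin3 they were 36 and 26, a ratio of 1.10 (0.647 to 1.90), so the sum rested on Plin3.

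**Figure D2:**
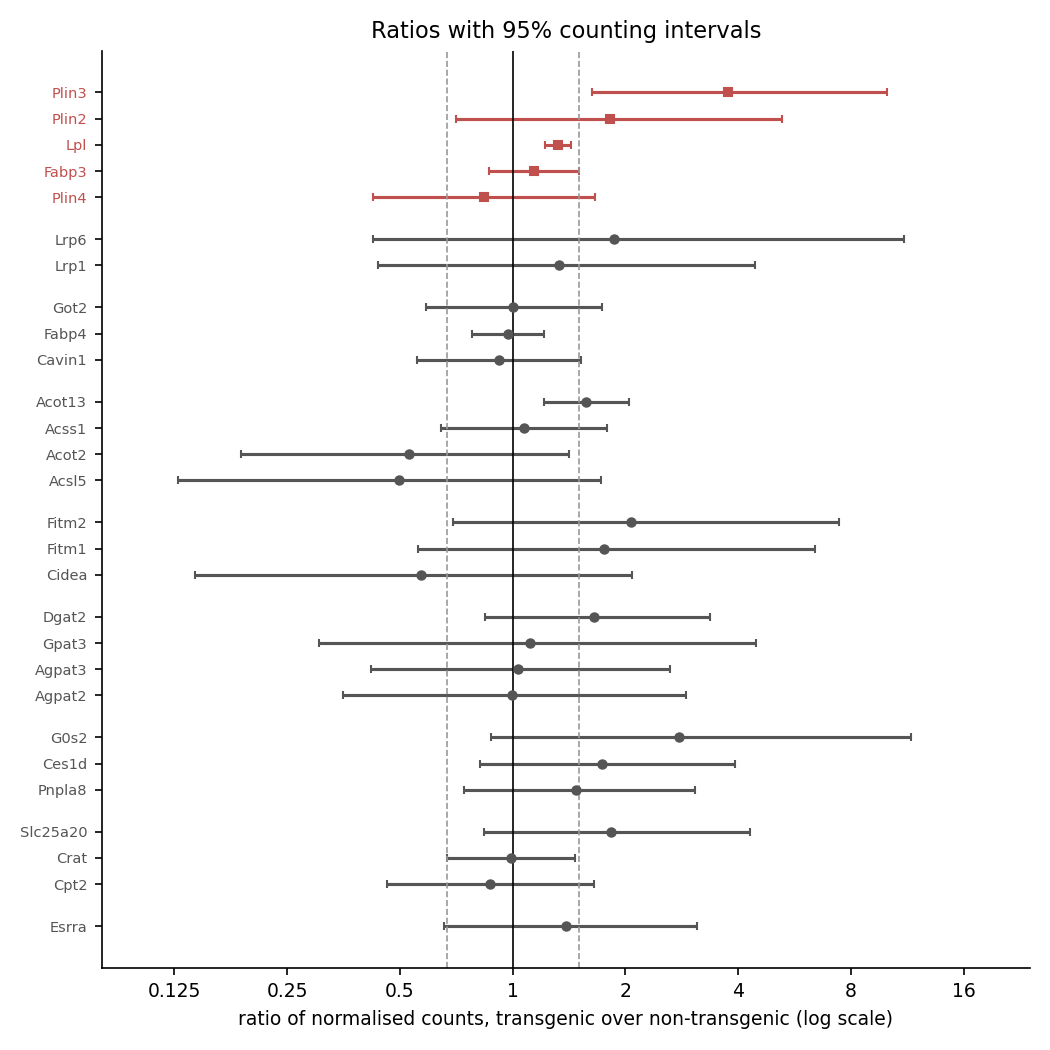
Transgenic over non-transgenic ratio of normalised counts (log scale), with exact 95% counting intervals, for the 5 genes with a ratio (red squares) and 23 other genes of the pathway whose counts summed to 10 or more (grey circles, in blocks by role). Dashed lines mark 1.5-fold in each direction; Plin3 and the thioesterase gene Acot13 are the genes whose ratio passes the upper line with an interval above 1.

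The promoters of the genes with a ratio are shown so that the 3 counted perilipins, whose point ratios were unlike, can be set beside each other and beside Fabp3. They are RefSeq windows on GRCm38.p6, from 250 bases before to 50 after the start, read 5′ to 3′ in the direction of the gene; the start used for Plin3 lies 2362 bases inside the GENCODE gene given above, while the other 3 starts lie within 143 bases of the 5′ ends of theirs. Windows were matched for 9 of the 10 genes, without Lpl. Capitals mark matches, on either strand, to the TATA box TATAAA, the CCAAT box CCAAT, the GC box GGGCGG, the E-box CACGTG, the nuclear receptor half-site AGGTCA, and the repeat of that half-site spaced by a single base of any kind (DR1), which PPAR and RXR bind and which contains the half-site.
Plin3 promoter (chr17:56290462-56290761, minus strand): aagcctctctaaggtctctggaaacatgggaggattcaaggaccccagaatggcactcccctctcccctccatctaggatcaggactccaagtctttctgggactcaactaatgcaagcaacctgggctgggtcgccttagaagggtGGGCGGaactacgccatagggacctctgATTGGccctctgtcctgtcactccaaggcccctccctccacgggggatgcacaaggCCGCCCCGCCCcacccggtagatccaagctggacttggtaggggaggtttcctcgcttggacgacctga
Plin2 promoter (chr4:86670010-86670309, minus strand): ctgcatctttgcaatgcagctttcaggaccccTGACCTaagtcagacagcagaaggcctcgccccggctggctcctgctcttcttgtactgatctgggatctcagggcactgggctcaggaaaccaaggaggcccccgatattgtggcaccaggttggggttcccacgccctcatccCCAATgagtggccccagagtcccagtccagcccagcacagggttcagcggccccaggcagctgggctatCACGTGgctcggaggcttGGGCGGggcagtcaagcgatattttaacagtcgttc
Plin4 promoter (chr17:56109733-56110032, minus strand): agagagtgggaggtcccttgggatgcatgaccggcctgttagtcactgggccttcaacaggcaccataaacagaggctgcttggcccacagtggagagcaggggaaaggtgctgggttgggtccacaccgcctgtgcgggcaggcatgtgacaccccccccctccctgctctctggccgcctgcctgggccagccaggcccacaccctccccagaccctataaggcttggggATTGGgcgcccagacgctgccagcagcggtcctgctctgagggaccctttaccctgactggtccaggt
Fabp3 promoter (chr4:130308488-130308787, plus strand): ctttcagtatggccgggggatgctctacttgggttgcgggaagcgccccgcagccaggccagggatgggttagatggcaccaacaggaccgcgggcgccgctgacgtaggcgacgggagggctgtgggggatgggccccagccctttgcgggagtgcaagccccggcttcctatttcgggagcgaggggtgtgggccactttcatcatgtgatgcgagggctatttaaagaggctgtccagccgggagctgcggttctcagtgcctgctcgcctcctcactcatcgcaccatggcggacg
The Plin3 window holds 3 GC box matches and 1 CCAAT box match. The Plin2 window holds a half-site match, a CCAAT box match, an E-box match across the start and a GC box match, that of Plin4 a CCAAT box match, and that of Fabp3 none of these letters. Of 32851 RefSeq windows of this length, 35.7% hold the GC box, 37.4% the CCAAT box, 16.3% the half-site, 13.6% the TATA box, 7.15% the E-box and 0.0396% the DR1 repeat. These matches describe the letters, not bound sites, and with counts from 1 library each they cannot be related to the ratios.

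Cd36, Acsl1, Plin5 and Pnpla2 had 0 counts in both libraries, and Slc27a1 had 1 count in the transgenic and 0 in the non-transgenic library. CD36 is the main fatty acid translocase of heart muscle, ACSL1 its main long-chain acyl-CoA synthetase, perilipin 5 a droplet coat of oxidative tissues that tethers droplets to mitochondria, and ATGL, the product of Pnpla2, the enzyme that starts triglyceride breakdown. No ratio was given for these 5 genes. The floor of 3 counts set for a count of 0 stands for 14.8 CPM in the transgenic and 18.6 CPM in the non-transgenic library, and the exact Poisson upper bound for 18.2 and 22.9 CPM. Neither covers reads left out when reads were assigned to accessions, so a 0 here does not show that a gene was not expressed.

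The split between counted and uncounted genes followed the number of RefSeq accessions that share a gene. All 5 genes with 1 accession (Lpl, Fabp3, Plin2, Plin3 and Plin4) had counts in both libraries, and of the 5 with several accessions only Slc27a1 had a count, a single count in the transgenic library. Cd36 has 5 accessions in the tables, Slc27a1 4, Pnpla2 3, and Acsl1 and Plin5 2 each, and 1 of these 16 accessions had a count. The transcripts of these accessions overlap over most of their length. In the GENCODE transcripts linked to them, the exon bases that belong to 1 accession alone were 389 of 3399 and 37 of 2677 for 2 accessions of Cd36 and 0 for its other 3. They were 196 of 3429 and 664 of 3897 for Acsl1, 101 of 1986 for each accession of Plin5, and 657 of 2625, 82 of 2048 and 0 of 1799 for Pnpla2. Of the accessions of Slc27a1, 3 had no linked transcript.

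The same split ran through the whole table. A count in either library was present for 41.1% of 17075 genes with 1 accession, against 14.9% of 7929 genes with several. Among genes with no opposite-strand exon within 5 kb the shares were 26.3% of 8254 and 9.85% of 2752. Among the other genes of the pathway, 35 of 40 with 1 accession had a count and 5 of 43 with several. Reads that could belong to several accessions may have been left out when counting was done per transcript, but the reads themselves were not analysed here and this was not tested. By number of accessions the share was 41.1% at 1, 16.7% at 2, 13.2% at 3, 12.3% at 4 and 12.9% at 5 or more.

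**Figure D3:**
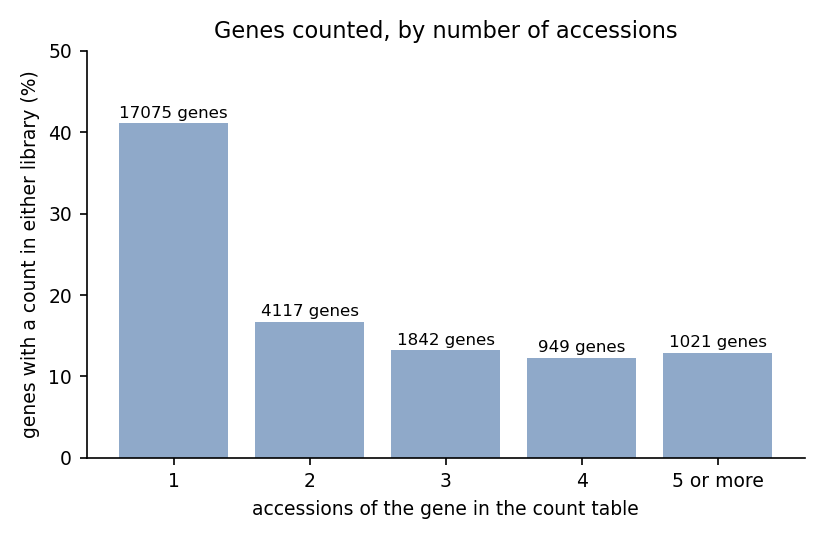
Share of genes with a count in either library (percent), by the number of RefSeq accessions of the gene, with the number of genes above each bar. The first bar stands at 41.1% and the others lie between 12.3% and 16.7%; Cd36, Slc27a1, Acsl1, Plin5 and Pnpla2 belong to the bars for 2 or more accessions.

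Levels of different genes can be set side by side only per length and only for the 5 genes with 1 accession. Per kilobase of the linked GENCODE transcript (4115 bp for Lpl, 823 bp for Fabp3, 1888 bp for Plin2, 3645 bp for Plin3 and 5756 bp for Plin4), Lpl was highest with 1951 CPM per kb in the transgenic and 1474 in the non-transgenic library. Fabp3 followed with 799 and 702 CPM per kb. In the transgenic library Plin3 at 44.7 CPM per kb (30.8 to 62.8) and Plin2 at 41.9 (23.9 to 68) did not differ beyond counting error, and Plin4 at 17.2 (10.5 to 26.5) lay below the interval of Plin3. In the non-transgenic library Plin2 at 23 CPM per kb (9.27 to 47.5), Plin4 at 20.5 (12.4 to 32) and Plin3 at 11.9 (4.80 to 24.6) had overlapping intervals. These orders hold for reads as assigned by the counting, with the strand setting unknown.

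**Figure D4:**
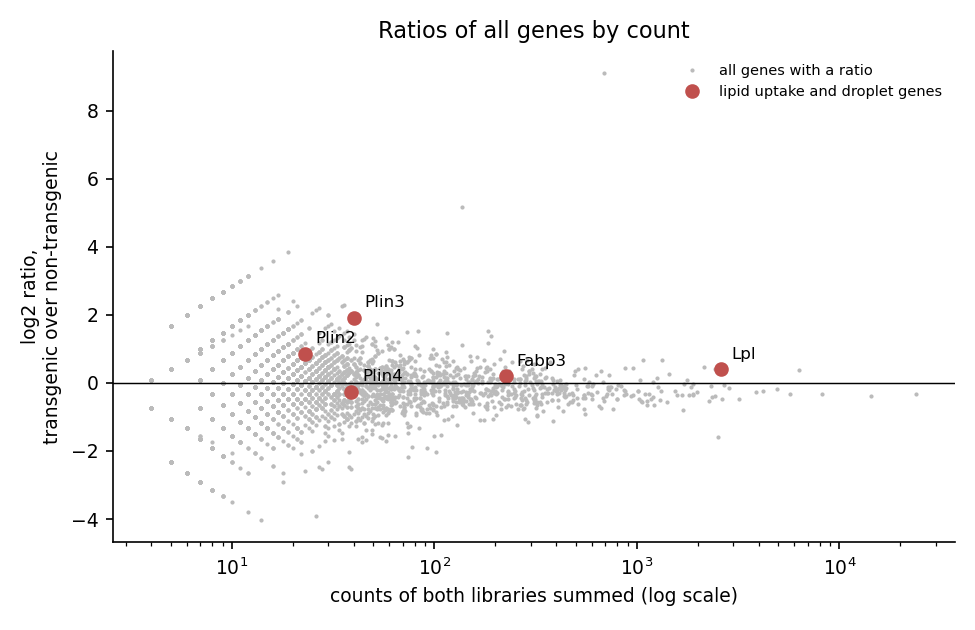
Log2 ratio, transgenic over non-transgenic, against the counts of both libraries summed (log scale) for the 4236 genes with a ratio (grey), with the 5 lipid uptake and droplet genes in red. Plin3 stands at 1.91, Plin2 at 0.86, Lpl at 0.40, Fabp3 at 0.19 and Plin4 at -0.26, and genes with few counts spread widely in both directions.

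Opposite-strand neighbours of the genes with several accessions were looked up as well. Nxnl1, 2281 bp from Slc27a1 (chromosome 8, 71568882 to 71587302, plus strand), had none in either library. Gm10575, annotated as a processed transcript and 738 bp from Pnpla2 (chromosome 7, 141455198 to 141460743, plus strand), was given 62 counts in the transgenic and 63 in the non-transgenic library. Acsl1 (chromosome 8, 46471037 to 46536051, plus strand) shares 1039 bp of exon with Gm45244, which is not a named row of the tables. Cd36 (chromosome 5, 17781690 to 17888801, minus strand) and Plin5 (chromosome 17, 56111601 to 56117596, minus strand) have no opposite-strand exon within 5 kb. Plin5 lies 1797 bp from Plin4 and 160 kb from Plin3 on the same strand, and so stands uncounted between a pair of counted relatives.

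Among the other genes of the pathway, higher calls were about as frequent as in the whole table and lower calls were absent. Of 83 genes in 9 lists by role, 33 had a ratio, of which 1 was called higher, none lower and 32 neither, with a median log2 ratio of 0.10, beside the 3.42% called higher, the 5.9% called lower and the median of 0.05 over all genes with a ratio. With 33 genes and 1 call, these shares do not set the lists apart from the table. The lists were described, not tested. Acot13, a thioesterase that hydrolyses acyl-CoA, was the gene called higher, with 176 counts in the transgenic and 89 in the non-transgenic library and a ratio of 1.57 (1.21 to 2.05). It is 1 of 6 genes with a ratio among the acyl-CoA synthetases and thioesterases, whose median log2 ratio was -0.41. Slc27a4, another fatty acid transport protein gene, had 6 counts in the transgenic and 0 in the non-transgenic library. With the 0 set to the floor of 3 counts its ratio was 1.59, but its interval began at 0.936. Slc27a4 was called higher as well when libraries were scaled by DESeq2 size factors or total counts alone.

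Partners of lipoprotein lipase were scarcely counted, which does not show low expression. Of the 10 genes of lipolysis control, 6 have several accessions, Gpihbp1 among them, and 1 of these 6 had a count. None of 10 genes of lipolysis control had a ratio; Gpihbp1, the protein that holds the enzyme at the capillary wall, had 2 counts in the transgenic and 1 in the non-transgenic library. Of 3 lipoprotein receptor genes with a ratio none was called, and the most counted, Lrp1, had 10 counts in the transgenic and 6 in the non-transgenic library, a ratio of 1.33 (0.436 to 4.44). Fabp4, the binding protein of fat cells and capillary endothelium, led the uptake and binding genes with 188 counts in the transgenic and 154 in the non-transgenic library, a ratio of 0.971 (0.780 to 1.21). None of the 4 genes of that list with a ratio was called, and their median log2 ratio was -0.02.

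The other genes of lipid storage and release gave no call. Of 4 other droplet protein genes with a ratio none was called, and Fitm2, which helps droplets to form, was the most counted with 13 and 5 counts in the transgenic and non-transgenic library, a ratio of 2.07 (0.692 to 7.41). Among 7 triglyceride synthesis genes with a ratio Dgat2, which makes triglyceride from diacylglycerol, had 29 counts in the transgenic and 14 in the non-transgenic library, a ratio of 1.65 (0.843 to 3.37). Among 3 lipolysis genes with a ratio Pnpla8, a phospholipase of the same family as Pnpla2, had 26 and 14, a ratio of 1.48 (0.743 to 3.06). Summed over the 8 lipolysis genes of that list the counts were 64 in the transgenic and 29 in the non-transgenic library, a ratio of 1.75 (1.11 to 2.82), with 5 of the 8 at 0 in both. Abhd5, which activates the lipase encoded by Pnpla2, was among those at 0 and has several accessions.

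The step after activation, entry of acyl groups into mitochondria by the carnitine shuttle, had 4 genes with a ratio and no call. Crat, carnitine acetyltransferase, was the most counted, with 61 counts in the transgenic and 49 in the non-transgenic library. Its ratio was 0.990 (0.668 to 1.47). Cpt1b had 2 counts in the transgenic and 0 in the non-transgenic library, and Cpt1a had 1 and 5. Both have 1 accession, so low counts were not confined to genes with several. Of the transcription factors that control lipid use, 8 of 10 had no count in either library, Ppara, Pparg and Ppargc1a among them. Esrra, a nuclear receptor gene of mitochondrial metabolism, had 21 counts in the transgenic and 12 in the non-transgenic library, a ratio of 1.39 (0.654 to 3.10). All 8 uncounted factors have several accessions.

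Many markers of other cells that hold lipid or express these genes had no count. A 0 does not show that a cell type was absent. Plin1, Cfd, Pecam1, Tek, Emcn, Adgre1, Cd163, Myh11, Pdgfrb and Postn, all at 0 below, have several accessions each. Genes of that kind were counted less often in these libraries. But Lep, Pck1, Hba-a1, Hbb-bs and Cd3e, with 1 accession each, were at 0 in both libraries as well. Of 10 adipocyte markers 7 were at 0 in both libraries, Plin1, Lep and Cfd among them, and Adipoq had 1 count in the transgenic and 0 in the non-transgenic library. The summed level of 939 CPM in the transgenic and 957 CPM in the non-transgenic library was almost all Fabp4, also an endothelial marker. The 10 macrophage markers summed to 35 counts in the transgenic and 19 in the non-transgenic library, a ratio of 1.46 (0.815 to 2.71), led by Lyz2 with 15 and 6, and Adgre1 and Cd163 were at 0. The 10 endothelial markers summed to 308 and 234 counts, a ratio of 1.05 (0.880 to 1.25), with Pecam1, Tek and Emcn at 0. Of these, Flt1 with 25 counts in the transgenic and 8 in the non-transgenic library and Aqp1 with 29 and 8 were called higher. Fabp4 held most of that sum, and Cdh5 with 42 and 39 counts, a ratio of 0.856 (0.540 to 1.36), and Kdr with 22 and 23, a ratio of 0.761 (0.404 to 1.43), were not called. The 5 smooth muscle and pericyte markers summed to 195 counts in the transgenic and 99 in the non-transgenic library, a ratio of 1.57 (1.22 to 2.02). Rgs5 led with 157 and 65 and was called higher, and Myh11 and Pdgfrb were at 0. The 7 fibroblast markers summed to 38 and 50 counts, a ratio of 0.604 (0.386 to 0.940). Col3a1 led with 14 and 23 and was called lower, Postn was at 0, and the 5 blood markers had no count. Relative to these summed markers the ratio of Plin3 lay between 2.39 (0.992 to 6.63), for smooth muscle and pericytes, and 6.11 (2.34 to 18.2), for fibroblasts. Flt1, Aqp1, Rgs5 and Col3a1 have no opposite-strand exon within 5 kb. Among the 237 such genes with at least 30 counts, 13.5% were called higher and 4.64% lower. The part of other cell types in the ratios of Plin3 and Lpl was not tested.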

How the data were processed

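Poly-A RNA of 3 pooled hearts per group was sequenced in 1 library each, using a stranded TruSeq kit, per the labels' protocols. The authors deposited raw counts of reads per RefSeq transcript accession; STAR and HTSeq are named beside the mm10 build, per the submitters' processing notes, with no version, annotation or strand setting. Of 41449 accessions, 41247 were named from RefSeq and 104 from GENCODE M21 on the assembly GRCm38; summing per gene gave 25004 rows. The 98 unnamed accessions, kept as rows of their own, held 1.66% of transgenic and 1.81% of non-transgenic counts. No sample column was left unused (0).

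Effective library sizes used TMM factors (1.06 transgenic, 0.943 non-transgenic) from edgeR 4.0.16 in R 4.3.3, fitted on all genes. Its quasi-likelihood test needs replicates and was not run. Ratios have exact Clopper-Pearson intervals at the 95% level from the binomial share of counts, levels exact Poisson intervals, and differences of ratios exact conditional odds ratio intervals. A count of 0 was set to a floor of 3 counts. The calculation was tested on simulated counts that held counting error alone, so that test does not cover variation between hearts or libraries. Strand classes used exons of all annotated transcripts. The alternatives comprised size factors of DESeq2 1.42.0, scaling by upper quartile or by total counts, the most counted accession alone, centring on strand class, other count filters and other call rules. Python 3.11.15, numpy 2.4.6, scipy 1.17.1, pandas 2.3.3 and matplotlib 3.10.9 were used.

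The members and lists were chosen with earlier results of these data known. The text names all members, opposite-strand genes within 5 kb of them, genes called in each pathway list or otherwise its most counted gene, and the most counted gene of each marker list with its genes at 0 where there are at most 4. Further genes, such as Slc27a4, Abhd5, Cpt1b, Ppara and Adipoq, were named after their values were seen.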

Additional observations from a re-analysis of the deposited data

How the results depend on the processing

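No paired analysis was possible because each group has 1 library, and for the same reason no replicate could be left out. Of 58 alternative values, 51 kept their direction and call or stayed within the counting interval, 7 moved and none reversed. The median log2 ratio of the genes with a ratio was 0.40 and moved to 0.57 with total counts alone. The ratio of Lpl, 1.32, moved to 1.49 with total counts alone and to 1.17 after centring on the strand class. The number of members called higher was 2 instead of 1 both with 1.5-fold alone, which adds Plin2, and with the interval alone at any fold, which adds Lpl. Other pathway genes called higher were 2 instead of 1 under DESeq2 size factors and under total counts (Slc27a4 joined), alternatives added after seeing the data. The ratio of Plin4 reached 1.00 after centring on the strand class. Over all genes the median log2 ratio shifted by 0.11 under DESeq2 size factors and 0.17 under total counts, and higher calls, 36.7% of all 1.5-fold calls, became 54.1% and 62.2%. The most counted accession alone gives the values of the sum by construction, since each gene with a ratio has 1 accession. The filter for a count in both libraries kept the same 5 genes and could not change a value either. Both are among the values counted as kept. Depth limits the perilipins, whose counts of 7 to 33 leave intervals several-fold wide.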
